A study of Mus musculus with 4 samples.

Results

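The genes described here are those of glycolysis and of the response to low oxygen, 35 genes in all, measured in whole ear skin. A gene was taken where the array had a probe set listing its symbol and no other. Where there were several, the one of highest average level represents the gene. This gave 32 of the 35 genes, among 19938 genes named in the same way. Gapdh had only probe sets that list several genes (25 of them), and Gpi1 and Eno1 had no listed probe set, so these 3 were not analysed here. The 32 genes were 4 transporters of glucose and lactate, 13 glycolytic enzymes, 3 regulators of glycolytic flux, 3 genes of oxygen sensing and 9 hypoxia-responsive genes.

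The mice were 8-week-old females in 4 groups of 1 array each. Epithelial Traf6 knockout mice (Traf6EKO, here EKO) and mice with the floxed, intact gene (Traf6f/f, here f/f) were either treated with imiquimod (IMQ) or left untreated. The treated ears received 10 mg of IMQ cream a day on 2 consecutive days. Both genotypes are named by their Traf6 allele, so f/f stands for floxed controls and not for wild-type mice. The knockout is described as specific to keratinocytes, and the sources used here do not name the Cre driver. The design text states n = 2 without saying if an array holds RNA from several mice. With 1 array per group there is no replicate error: differences carry no p-value, and the number of arrays limits the precision. Values are log2 levels or log2 differences unless a fold is given. Array medians lay between 6.52 and 6.57. Traf6 itself was at 9.35 with IMQ and 9.65 untreated in EKO skin and at 9.30 with IMQ and 9.51 untreated in f/f skin. It was thus not lower in EKO, where EKO minus f/f was 0.05 with IMQ and 0.14 untreated. The reason was not tested. This level includes cells outside the epithelium and does not check the labels. The basal keratin Krt14 stood between 12.29 and 13.02 on the 4 arrays, and all 24 skeletal muscle and 11 adipocyte markers measured were also detected at the floor or above on at least 1 array, so the RNA was not that of epidermis alone.

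Glycolysis splits glucose into pyruvate, and lactate dehydrogenase turns pyruvate into lactate, which leaves the cell through monocarboxylate transporters. Several steps are run by isoforms that differ between tissues, among them muscle forms of phosphofructokinase, phosphoglycerate mutase and enolase. The transcription factor subunit HIF-1alpha is marked for degradation by oxygen-dependent prolyl hydroxylases, and when oxygen is low it raises transcription of glucose transporters, most glycolytic enzymes and genes such as Vegfa and Car9. The epidermis takes up glucose mainly through the transporter encoded by Slc2a1, and this pathway is active in dividing keratinocytes.

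HIF binds DNA at a core of ACGTG or GCGTG. For that reason, upstream sequences of some of the members that differed most with IMQ are shown. Each is the 250 bases before a RefSeq transcription start (build GRCm38.p6), written 5' to 3' on the gene's strand, with matches to ACGTG or GCGTG on either strand in capitals. The first 3 belong to the genes 2-fold or more higher with IMQ in f/f skin, the next 2 are starts of Pfkfb3, the gene more than 2-fold lower, and the last belongs to Bnip3, which lay just under 2-fold lower. They come from chr4:119108495-119108744 (Slc2a1, plus strand), chr3:104638414-104638663 (Slc16a1, plus strand), chr19:41911621-41911870 (Pgam1, plus strand), chr2:11502091-11502340 and chr2:11553930-11554179 (Pfkfb3, minus strand) and chr7:138909507-138909756 (Bnip3, minus strand).
Slc2a1: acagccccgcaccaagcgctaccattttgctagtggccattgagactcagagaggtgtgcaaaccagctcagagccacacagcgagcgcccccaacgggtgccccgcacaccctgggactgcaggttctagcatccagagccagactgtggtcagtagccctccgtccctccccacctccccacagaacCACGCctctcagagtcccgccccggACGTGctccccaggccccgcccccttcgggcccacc
Slc16a1: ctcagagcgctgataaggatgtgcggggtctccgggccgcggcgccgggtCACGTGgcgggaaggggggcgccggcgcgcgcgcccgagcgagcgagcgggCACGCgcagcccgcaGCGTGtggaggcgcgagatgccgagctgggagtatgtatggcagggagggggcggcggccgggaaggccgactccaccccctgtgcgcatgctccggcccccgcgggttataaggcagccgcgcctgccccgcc
Pgam1: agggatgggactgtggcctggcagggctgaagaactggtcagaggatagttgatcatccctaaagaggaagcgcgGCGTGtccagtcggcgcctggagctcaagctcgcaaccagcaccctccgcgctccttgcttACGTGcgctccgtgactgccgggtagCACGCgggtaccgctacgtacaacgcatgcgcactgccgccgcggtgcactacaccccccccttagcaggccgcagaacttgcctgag
Pfkfb3, downstream start: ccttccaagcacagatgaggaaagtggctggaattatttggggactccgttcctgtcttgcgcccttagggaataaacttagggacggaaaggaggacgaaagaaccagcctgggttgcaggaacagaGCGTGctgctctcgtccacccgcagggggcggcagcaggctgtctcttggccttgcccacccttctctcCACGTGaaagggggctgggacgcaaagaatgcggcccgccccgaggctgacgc
Pfkfb3, upstream start: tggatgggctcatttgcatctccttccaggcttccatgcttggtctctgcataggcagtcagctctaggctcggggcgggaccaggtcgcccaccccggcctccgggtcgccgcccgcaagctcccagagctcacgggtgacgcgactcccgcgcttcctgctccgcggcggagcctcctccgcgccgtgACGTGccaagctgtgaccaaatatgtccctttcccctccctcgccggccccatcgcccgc
Bnip3: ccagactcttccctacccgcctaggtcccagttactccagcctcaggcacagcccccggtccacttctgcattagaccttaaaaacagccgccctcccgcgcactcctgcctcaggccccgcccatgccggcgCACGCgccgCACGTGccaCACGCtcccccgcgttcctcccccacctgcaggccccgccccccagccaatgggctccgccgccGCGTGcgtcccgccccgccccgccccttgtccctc

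The 6 windows shown all held a match, whichever direction the gene differed in. Pfkm, which also lay just under 2-fold lower in f/f skin (-0.99), has several starts and is not shown. Of its windows, that at chr15:98111810-98112059 held no match. Slc2a1 had 1 match to ACGTG and 1 to GCGTG, Pgam1 had 1 and 2, and Bnip3 had 2 and 3. A palindromic CACGTG, which is also the E-box read by other factors such as MYC, counts as 2 matches to ACGTG and was present in Slc16a1, Bnip3 and the downstream start of Pfkfb3. Of the 32 members, 30 had a window among the promoter sequences used here, which held none under the symbols Slc2a3 and Ndrg1. At least 1 window held ACGTG or GCGTG in 29 of these 30 genes (96.7%), and in 41.5% of all 27025 genes with a window. ACGTG alone was found in 21 of 30 members, against 18.5% of all genes. Tpi1 was the member without a match to either. The windows of members were richer in G and C, with a median of 62.2% against 56.8% in the 19177 windows of genes on the array. Among windows of at least 60% G or C, 23 of 24 member windows held either core, against 65.2% of those of array genes. The members were listed as hypoxia-responsive or glycolytic genes, many of which are textbook HIF targets, so this share describes the list. A match is a description of these letters and not a binding site.

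In f/f skin treated with IMQ, the carriers Slc2a1 and Slc16a1 and several glycolytic enzymes were higher than in untreated f/f skin. The muscle-type phosphofructokinase, Pfkfb3 and Bnip3 were lower. In EKO skin most of the same genes lay on the same side at smaller differences, and no member reached 2-fold. Counts take in only genes that stood at or above a floor on 1 array or more of the comparison, the floor being each array's median over named genes (6.93 to 6.98). Of the 32 members 28 reached the floor, the exceptions being Slc2a3, Car9, Ankrd37 and Adm, which lay below it on all 4 arrays. In EKO skin 0 of 28 members were at least 2-fold higher with IMQ, beside 0.671% of all genes at the floor, and 0 were at least 2-fold lower, beside 0.0972%. In f/f skin 3 of 28 were at least 2-fold higher (10.7%, beside 3.82% of all genes) and 1 was at least 2-fold lower (3.57%, beside 2.63%). At 1.5-fold, 2 of 28 were higher with IMQ in EKO skin (7.14%, beside 2.66% of all genes) and 0 were lower (beside 0.807%). At 1.5-fold, 9 of 28 were higher in f/f skin (32.1%, beside 10.2%) and 3 were lower (10.7%, beside 9.53%), so that the lower count lay close to the share of all genes. The median IMQ difference over all 32 members was 0.03 in EKO and 0.16 in f/f skin, while over all named genes it was -0.01 in both. By sign alone, 17 of 32 members were higher with IMQ in EKO (46.9% of all genes) and 15 lower (52.8%). In f/f, 19 were higher (48.8% of all genes) and 13 lower (51.0%).

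**Figure D1:**
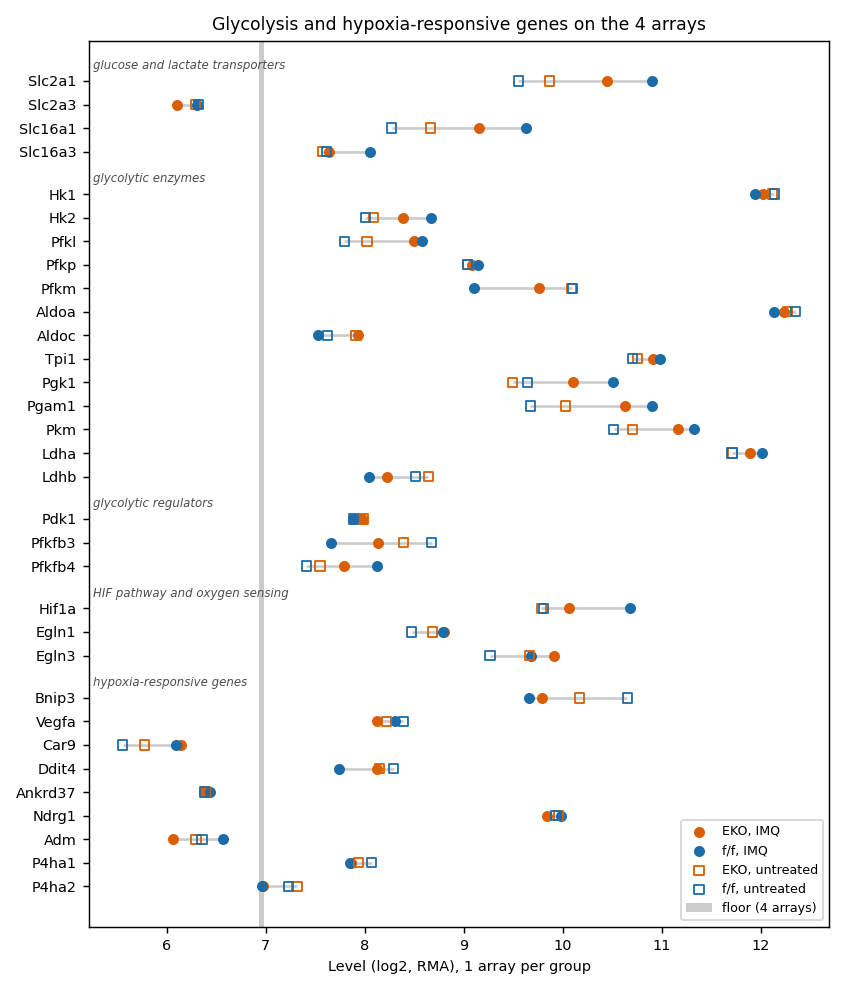
Log2 levels of the 32 genes on the 4 arrays (circles with IMQ, open squares untreated, orange EKO, blue f/f), by role, with the floor of 6.93 to 6.98 as a grey band. Slc2a1, Slc16a1 and Pgam1 have both IMQ arrays to the right of both untreated ones, and 4 genes lie left of the floor throughout; positions of different genes cannot be set against each other, since each probe set has its own response.

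Among the carriers, Slc2a1 and Slc16a1 were higher with IMQ. Slc2a1, the main glucose transporter of keratinocytes, was at 10.44 with IMQ and 9.87 untreated in EKO skin, and at 10.90 with IMQ and 9.55 untreated in f/f skin. Both IMQ arrays lay above both untreated arrays, by 1.49-fold in EKO and 2.55-fold in f/f. Slc16a1, which encodes a proton-coupled lactate and pyruvate carrier, stood at 9.15 with IMQ and 8.67 untreated in EKO skin, and at 9.63 with IMQ and 8.27 untreated in f/f skin. This was the largest IMQ difference of any member in f/f skin (2.56-fold), and it was 1.40-fold in EKO. Slc16a3, the lactate exporter typical of strongly glycolytic cells, read 7.64 with IMQ and 7.57 untreated in EKO skin, against 8.05 with IMQ and 7.61 untreated in f/f skin. Only the f/f IMQ array stood clearly above the others, and the f/f difference of 0.44 stayed under 1.5-fold. Slc2a3, a high-affinity glucose transporter of neurons and leukocytes, lay below the floor at 6.11 with IMQ and 6.29 untreated in EKO skin, and at 6.31 with IMQ and 6.32 untreated in f/f skin.

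The enzymes split into a group that was higher with IMQ and a group that was not. Pgam1, the phosphoglycerate mutase of most tissues, was at 10.63 with IMQ and 10.02 untreated in EKO skin, and at 10.90 with IMQ and 9.67 untreated in f/f skin (1.52-fold in EKO, 2.34-fold in f/f). Its other probe sets, of which 2 hold identical values, gave 0.56 in EKO and 1.21 in f/f. Pgk1, which makes the first ATP of the pathway, read 10.10 with IMQ and 9.49 untreated in EKO skin, and 10.51 with IMQ and 9.64 untreated in f/f skin. Its difference was 1.53-fold in EKO, the largest of any member there, and 1.83-fold in f/f. Pkm, pyruvate kinase, was at 11.17 with IMQ and 10.70 untreated in EKO skin, and at 11.33 with IMQ and 10.51 untreated in f/f skin, or 1.38-fold and 1.76-fold. Pfkl, the liver-type phosphofructokinase, stood at 8.50 with IMQ and 8.02 untreated in EKO skin, and at 8.57 with IMQ and 7.79 untreated in f/f skin, or 1.39-fold and 1.72-fold. For all 4 of these enzymes both IMQ arrays lay above both untreated arrays. Hk2, the inducible hexokinase, followed at 0.29 in EKO and 0.67 in f/f. Pgam1 and Pgk1 have processed copies in the genome, so their probe sets may also read related sequences.

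Pfkm, the muscle-type phosphofructokinase, ran the other way. It was at 9.75 with IMQ and 10.09 untreated in EKO skin, and at 9.10 with IMQ and 10.10 untreated in f/f skin. The f/f IMQ array was lowest and the untreated arrays were nearly equal, and its f/f difference of -0.99 stood just short of 2-fold (1.99-fold lower). All 24 skeletal muscle markers were also lower with IMQ in both genotypes, with medians of -0.30 in EKO and -0.91 in f/f, next to -0.33 and -0.99 for Pfkm. Their summed level, as log2 of the linear sum, was 15.12 with IMQ and 15.40 untreated in EKO skin, and 14.69 with IMQ and 15.54 untreated in f/f skin, and the lowest marker stood at 7.06, above the floor. In RNA of a whole tissue, fewer cells of a type and less RNA per cell cannot be told apart, and the part of muscle in the Pfkm values was not tested. Ldhb, the lactate dehydrogenase subunit of oxidative tissues, differed by -0.41 in EKO and -0.47 in f/f. Its second probe set gave -0.18 and -0.45, so the size of the EKO difference depends on the probe set. Ldha, the subunit favouring lactate formation, differed by 0.17 in EKO and 0.30 in f/f. The remaining enzymes Pfkp, Aldoa, Aldoc, Tpi1 and Ldha ranged from -0.03 to 0.17 in EKO and from -0.22 to 0.30 in f/f.

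Hk1, a hexokinase found in most tissues, depends on the probe set. The one with the highest mean lists a single sequence record and no RefSeq mRNA, and it differed by -0.10 in EKO and -0.19 in f/f. The other lists RefSeq mRNAs of Hk1 and was at 9.04 with IMQ and 8.80 untreated in EKO skin, and at 9.04 with IMQ and 8.49 untreated in f/f skin, a difference of 0.24 and 0.55. The sign of the Hk1 difference is therefore uncertain, and 16 further probe sets that list Hk1 together with other genes were not used.

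**Figure D2:**
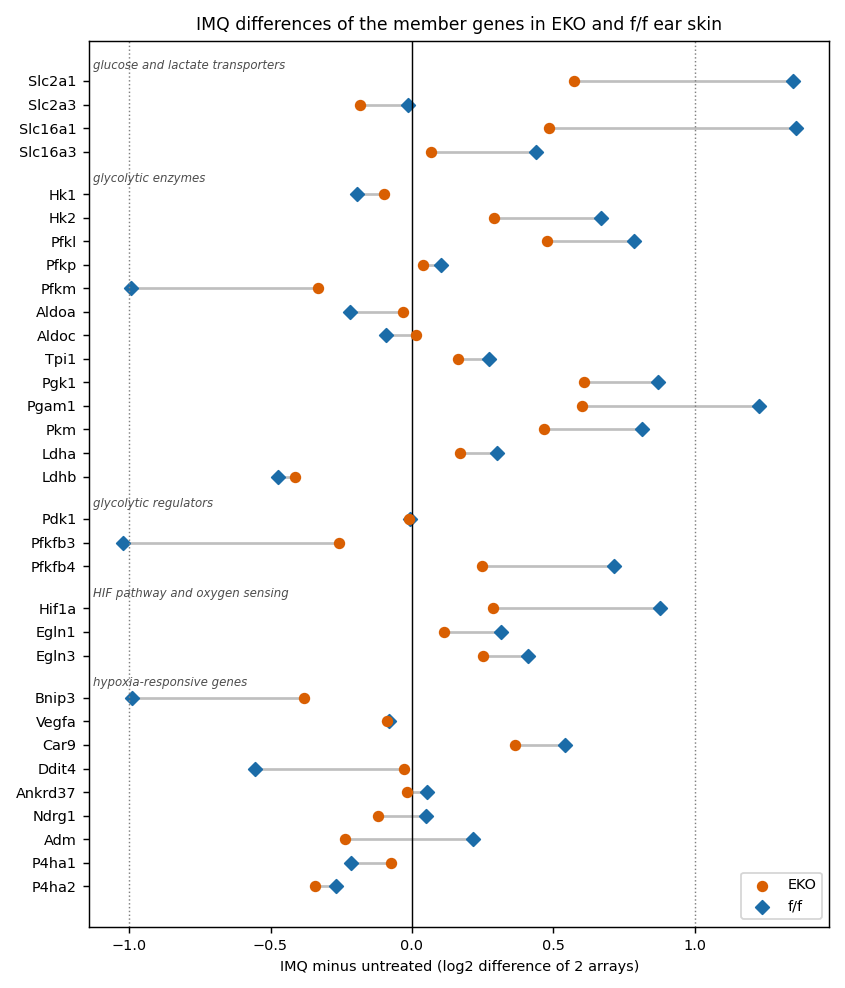
IMQ minus untreated for each of the 32 genes (log2 difference of 2 arrays), in EKO (orange circles) and f/f (blue diamonds), with dotted lines at 2-fold. Slc2a1, Slc16a1 and Pgam1 pass the upper line and Pfkfb3 the lower one in f/f, Pfkm and Bnip3 stop just inside it, and every EKO value lies between -0.41 and 0.61.

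The bifunctional enzymes that set the level of phosphofructokinase's activator differed in opposite directions. Pfkfb3 was at 8.13 with IMQ and 8.39 untreated in EKO skin, and at 7.65 with IMQ and 8.68 untreated in f/f skin. Both IMQ arrays were below both untreated ones, and the difference was 1.19-fold lower in EKO and 2.03-fold lower in f/f. Pfkfb4 stood at 7.79 with IMQ and 7.55 untreated in EKO skin, and at 8.12 with IMQ and 7.41 untreated in f/f skin, 1.19-fold and 1.64-fold higher. Pdk1, a kinase that keeps pyruvate out of the mitochondrial cycle and a textbook HIF target, was at 7.97 with IMQ and 7.98 untreated in EKO skin, and at 7.88 with IMQ and 7.89 untreated in f/f skin, so the IMQ difference was -0.01 in each genotype.

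Of the oxygen-sensing genes, all 3 were higher with IMQ in both genotypes, and Hif1a by the most in f/f. Hif1a, the oxygen-regulated HIF subunit, was at 10.07 with IMQ and 9.78 untreated in EKO skin, and at 10.68 with IMQ and 9.80 untreated in f/f skin. The untreated arrays were nearly level, and the difference was 1.22-fold in EKO and 1.84-fold in f/f. Egln1, the main HIF prolyl hydroxylase, read 8.80 with IMQ and 8.69 untreated in EKO skin, and 8.79 with IMQ and 8.47 untreated in f/f skin. Egln3, a hydroxylase that HIF itself induces, stood at 9.91 with IMQ and 9.66 untreated in EKO skin, and at 9.68 with IMQ and 9.26 untreated in f/f skin. For both hydroxylase genes the IMQ arrays lay above the untreated arrays, narrowly for Egln3. These measurements are of mRNA, whereas HIF-1alpha is controlled mainly through its protein. Neutrophil markers, cells in which Hif1a is active, also differed. With IMQ, 9 of 13 were higher in EKO (beside 46.9% of all genes) and 10 of 13 in f/f (beside 48.8%). The medians were 0.15 and 1.45, and 6 of the 13 stood at the floor in EKO and 9 in f/f. Their summed level was 11.70 with IMQ and 11.23 untreated in EKO skin, and 13.13 with IMQ and 11.17 untreated in f/f skin, with Ly6g, Elane, Ltf and Mpo below the floor on all arrays and S100a8 and S100a9 also made by stressed keratinocytes. Il1r2, the highest of these markers in untreated skin, differed by -0.41 in EKO and -0.53 in f/f, so the sum mixes markers of opposite sign. Keratinocyte stress markers, a list that also holds S100a8 and S100a9, were higher with IMQ in 11 of 11 in both genotypes. Their medians were 1.61 in EKO and 4.04 in f/f. The part of neutrophils or of keratinocytes in the Hif1a values was not tested.

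The hypoxia-responsive members were mostly lower with IMQ in EKO skin, by small amounts, and split by sign in f/f skin. Of 9, 8 were lower with IMQ in EKO (beside 52.8% of all genes) and 5 in f/f (beside 51.0%, so close to that share). The medians were -0.09 and -0.08, so nearly alike, and 6 of the 9 reached the floor. The counts by sign rest partly on very small differences, among them Ankrd37 (-0.02) and Ddit4 (-0.03) in EKO. In f/f, Ankrd37 and Ndrg1 were each at 0.05. The member higher in EKO was Car9. Bnip3, a mitophagy receptor, was at 9.78 with IMQ and 10.17 untreated in EKO skin, and at 9.66 with IMQ and 10.65 untreated in f/f skin. Both IMQ arrays lay below both untreated arrays, at 1.30-fold lower in EKO and 1.99-fold lower in f/f, and the second probe set of Bnip3 gave -0.21 and -0.71. Ddit4, an inhibitor of the growth kinase complex mTORC1, stood at 8.12 with IMQ and 8.14 untreated in EKO skin, and at 7.74 with IMQ and 8.29 untreated in f/f skin, the f/f IMQ array alone being low. Car9, a carbonic anhydrase often used as a marker of hypoxia, read 6.14 with IMQ and 5.77 untreated in EKO skin, and 6.10 with IMQ and 5.55 untreated in f/f skin, all below the floor. P4ha2, a subunit of collagen prolyl hydroxylase, was at 6.97 with IMQ and 7.31 untreated in EKO skin, and at 6.96 with IMQ and 7.23 untreated in f/f skin, lower with IMQ in both. Vegfa, the vascular growth factor, differed by -0.09 in EKO and -0.08 in f/f, and Ndrg1 by -0.12 and 0.05. P4ha1 differed by -0.07 in EKO and -0.22 in f/f, and Ankrd37 by -0.02 and 0.05. Adm, the vasodilator peptide adrenomedullin, was lower by 0.24 with IMQ in EKO and higher by 0.22 in f/f, below the floor on every array. Endothelial markers, for which Vegfa is a growth factor, were lower in 6 of 8 in EKO (beside 52.8% of all genes) and in 8 of 8 in f/f (beside 51.0%).

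Across isoforms of the same step, some forms were higher with IMQ and others lower. The muscle forms Pgam2 and Eno3, which are not members, differed by -0.22 and -0.26 in EKO and by -0.59 and -0.82 in f/f. Pgam2 was thus opposite to Pgam1, while Eno1, the enolase among the members, was not measured. Adpgk, an ADP-dependent glucokinase, differed by 0.13 in EKO and 0.49 in f/f, Pfkfb2 by -0.10 and -0.38, and Minpp1 by 0.04 and -0.07. Among glucose carriers, Slc2a4, the insulin-regulated transporter of muscle and fat, differed by -0.19 in EKO and -0.82 in f/f, and Slc2a12 by -0.41 and -1.49, opposite to Slc2a1. Slc16a7, a relative of Slc16a1, differed by -0.39 in EKO and -1.18 in f/f. Slc2a6 differed by 0.03 and 0.30, and Slc2a13 by -0.15 and -0.20. While Pdk1 stayed level, Pdk2 was 1.36-fold lower in EKO and just over 2-fold lower in f/f. Pdk4 differed by -0.21 and -0.82, and Pdk3 by 0.18 and 0.46. Adipocyte markers were lower with IMQ in 11 of 11 in both genotypes (medians -0.41 in EKO and -1.44 in f/f), as were the muscle markers above. Their part in the values of Slc2a4, Slc2a12, Slc16a7, Pdk2 and Pdk4 was not tested.

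**Figure D3:**
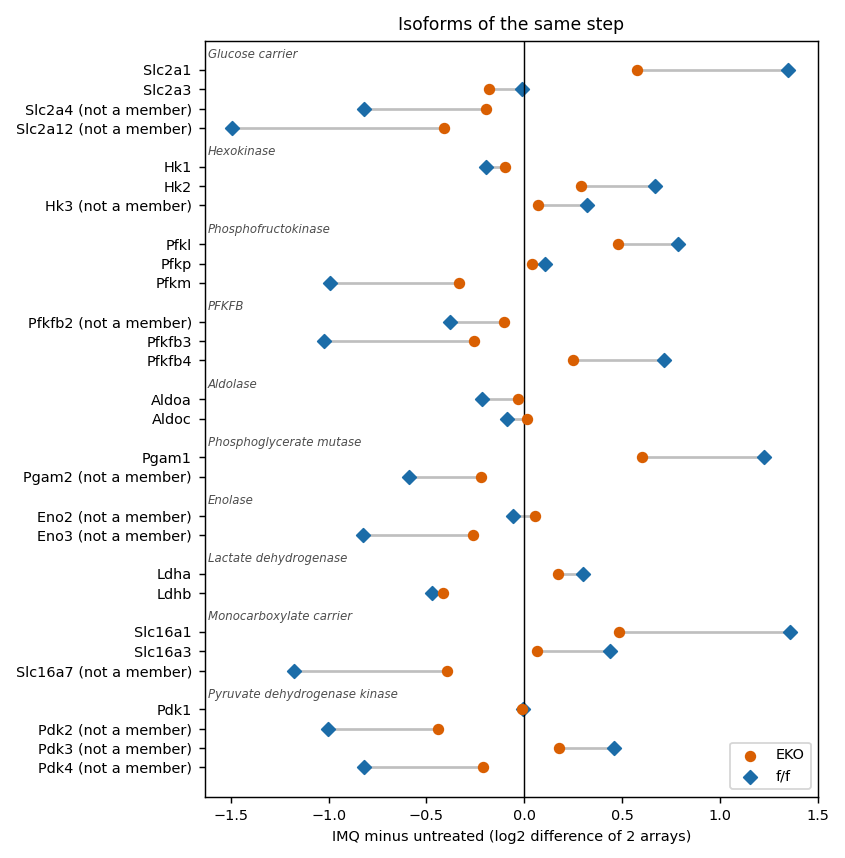
IMQ minus untreated (log2 difference of 2 arrays) in EKO (orange circles) and f/f (blue diamonds), for isoforms grouped by step. Within phosphofructokinase, Pfkl lies at 0.78 and Pfkm at -0.99 in f/f, and within phosphoglycerate mutase Pgam1 lies at 1.23 and Pgam2 at -0.59.

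Neighbouring pathways showed how far the pattern reached. For comparison, 46.9% of all genes were higher with IMQ in EKO and 48.8% in f/f, and 52.8% and 51.0% were lower. Pentose phosphate genes, which branch from glucose 6-phosphate, were higher with IMQ in 5 of 7 in EKO and in 6 of 7 in f/f, with medians of 0.10 and 0.25 and 0 past 1.5-fold. The largest was Pgd, 6-phosphogluconate dehydrogenase, at 0.36 in EKO and 0.54 in f/f. Glycogen and gluconeogenesis genes were lower with IMQ in 15 of 18 in EKO and in 16 of 18 in f/f, with medians of -0.23 and -0.62. In f/f skin 4 of 16 at the floor were at least 2-fold lower, beside 2.63% of all genes, and these were Pck1 (-1.70), Phka1 (-1.38), Pygm, the muscle glycogen phosphorylase (-1.26), and Phkg1 (-1.04). Gyg, which primes glycogen, differed by -0.37 in EKO and -0.95 in f/f. Muscle markers (medians -0.30 in EKO and -0.91 in f/f) and adipocyte markers (-0.41 and -1.44) were lower alongside, and their part in the glycogen and gluconeogenesis values was not tested. Genes of pyruvate and oxidative entry were lower in 11 of 12 in EKO and in 9 of 12 in f/f. Their medians were -0.17 and -0.26, again beside lower muscle and adipocyte markers whose part was not tested. This list mixes pyruvate dehydrogenase genes with Pcx and with Pdk2, Pdk3 and Pdk4, kinases that act against that entry. In f/f, 3 of 11 at the floor were at least 1.5-fold lower (beside 9.53% of all genes), namely Pdk2, Pdk4 and Pcx. The dehydrogenase genes Pdha1, Pdhb, Pdhx, Dld and Dlat differed by -0.33, -0.12, -0.11, -0.19 and 0.19 in f/f. In EKO they differed by -0.14, -0.18, -0.10, -0.29 and -0.04. Beyond the kinases above, Pcx, pyruvate carboxylase, differed by -0.26 in EKO and -0.74 in f/f, and Pdp1, a phosphatase of pyruvate dehydrogenase, by -0.29 and -0.54. Other HIF pathway genes stayed between -0.30 and 0.15 in EKO and between -0.38 and 0.07 in f/f, with Cited2, which competes with HIF for its coactivators, at -0.07 and -0.38 and Arnt, the partner of HIF-1alpha, at -0.16 and -0.29. Among 30 other hypoxia-responsive genes, 12 were higher with IMQ in EKO and 18 in f/f, and the medians were -0.06 and 0.05. Of the 24 at the floor in f/f, 3 were at least 2-fold higher (beside 3.82% of all genes), namely Fam162a (0.75 in EKO, 1.42 in f/f), Car12 (0.77 and 1.40) and Hilpda (0.47 and 1.09), and 1 was at least 2-fold lower (beside 2.63%), Ppp1r3c (-0.70 and -1.15). Tgfb3 differed by -0.53 in EKO and -0.83 in f/f. As among the members, both directions occurred.

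**Figure D4:**
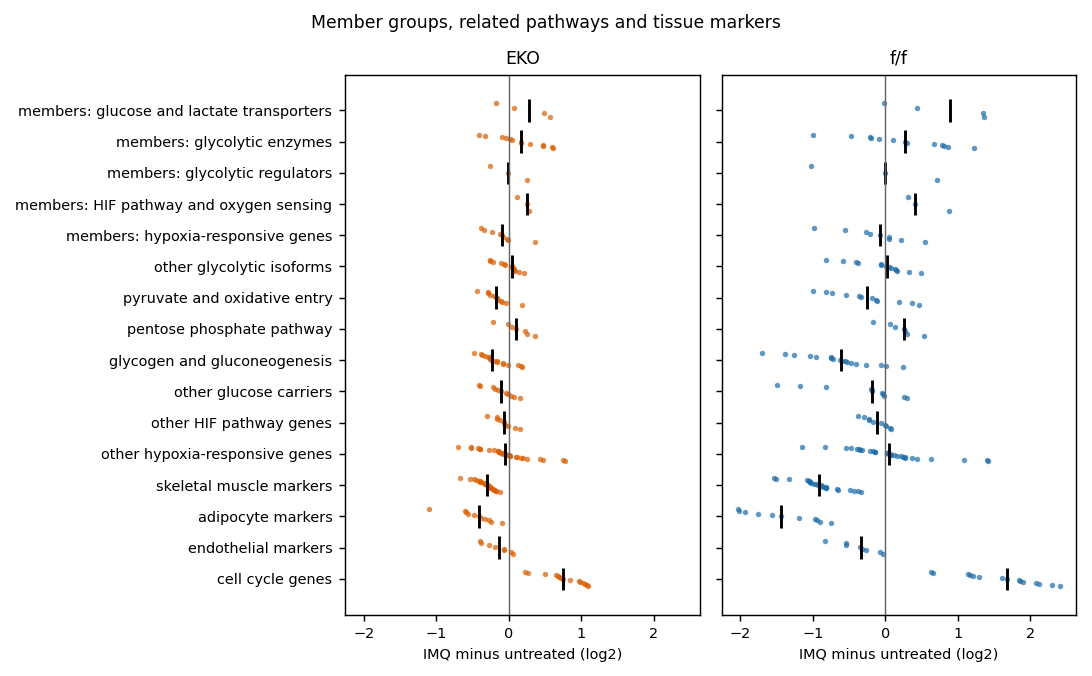
IMQ minus untreated (log2) for each gene (points) and the median (black bars) of the member groups, related pathways and marker lists, in EKO (left) and f/f (right). Carriers have the highest member median (0.28 in EKO, 0.89 in f/f). The medians of glycogen genes and of muscle and fat markers lie to the left of 0, and that of cell cycle genes lies to the right (0.75 and 1.67).

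The IMQ differences in EKO and f/f share no array. Across the 32 members they ran in parallel (Pearson r = 0.90, Spearman rho = 0.91, as a description across genes that share arrays and normalization), beside r = 0.73 over all named genes. The sign was the same in both genotypes for 28 of 32 members (87.5%), beside 70.2% of all named genes. The exceptions were Aldoc, Ankrd37, Ndrg1 and Adm, all with differences under 0.25 in both genotypes. The difference was smaller in size in EKO for 26 of 32 members (81.2%), beside 69.9% of all named genes. These 3 comparisons use no floor, and the sets are unlike in level. Of the members 28 of 32 reached the floor, but of the 19938 named genes only 10285 did in EKO and 10548 in f/f. Genes of like level were not compared, so the gaps are not read as a trait of the members. For the 9 members that IMQ-treated f/f skin held 1.5-fold or more above untreated f/f skin, the difference in EKO was smaller in all 9, with medians of 0.48 in EKO and 0.87 in f/f. The EKO difference amounted to a median of 0.44 of the f/f one, between 0.32 for Hif1a and 0.70 for Pgk1. For the 3 lower members it was 0.25 of the f/f difference for Pfkfb3, 0.33 for Pfkm and 0.39 for Bnip3. Choosing genes by their f/f difference inflates that difference. Chosen by EKO, 2 members were at least 1.5-fold higher, Pgam1 and Pgk1, and both were again smaller in EKO. Both are also among the 9 chosen by f/f, so this is no separate check. Cell cycle genes, a sign of dividing cells, were higher with IMQ in 15 of 15 in both genotypes, and their part in the differences of the enzymes was not tested.

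In the difference of the 2 IMQ differences, which uses all 4 arrays, 0 of 28 members were at least 2-fold higher in EKO (1.06% of all genes) and 0 at least 2-fold lower (1.18%). At 1.5-fold, 4 members were lower (14.3%, beside 4.63% of all genes), namely Slc16a1 (-0.87), Slc2a1 (-0.77), Pgam1 (-0.62) and Hif1a (-0.59). The 3 that were higher (10.7%, beside 3.65%) were Pfkfb3 (0.77), Pfkm (0.66) and Bnip3 (0.61). By sign, 9 of 32 members were higher (49.1% of all genes) and 23 lower (50.9%). This interaction was not tested, as each group has 1 array.

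Genotypes were compared with IMQ and without it. With IMQ, 0 of 28 members were at least 2-fold higher in EKO than in f/f skin (0.418% of all genes) and 0 at least 2-fold lower (0.875%). At 1.5-fold, Pfkm was higher in EKO (0.65) and Hif1a lower (-0.62), which is 3.57% of members in each direction, beside 2.03% of all genes higher and 2.61% lower. By sign, 14 of 32 were higher in EKO with IMQ (47.4% of all genes) and 18 lower (52.4%). All 4 carriers were lower in EKO with IMQ, by 0.46 for Slc2a1, 0.48 for Slc16a1, 0.42 for Slc16a3 and 0.20 for Slc2a3. With IMQ, keratinocyte stress markers were also lower in EKO in 11 of 11 (median -0.78), neutrophil markers in 12 of 13 (-0.78) and cell cycle genes in 15 of 15 (-0.27). Muscle markers were higher in EKO in 24 of 24 (median 0.48, beside 0.65 for Pfkm) and adipocyte markers in 11 of 11 (0.51). Their part in the genotype differences of the members was not tested. Without IMQ, 0 of 28 members were at least 2-fold higher in EKO (0.0686% of all genes) and 0 at least 2-fold lower (0.324%). None passed 1.5-fold in either direction, beside 0.647% of all genes higher and 1.06% lower. By sign, 19 of 32 were higher in untreated EKO (49.0% of all genes) and 13 lower (50.8%). The largest untreated differences were Egln3 (0.40), Slc16a1 (0.40) and Pgam1 (0.35) on the higher side and Bnip3 (-0.48) and Pfkfb3 (-0.29) on the lower side.

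Of these 9 members with higher levels under IMQ in f/f, 7 were higher in EKO than in f/f skin when untreated, and all 9 were lower in EKO with IMQ. The exceptions in untreated skin were Pgk1 (-0.15) and Hif1a (-0.02). Of the 3 members lower with IMQ in f/f, all were lower in untreated EKO skin and all were higher in EKO with IMQ. These genes were chosen by a difference that shares its f/f arrays with the genotype differences, so the choice favours these signs and nothing is read from them. Without IMQ, cell cycle genes were also higher in EKO in 15 of 15 (median 0.56), and adipocyte markers were lower in 11 of 11 (median -0.47). Their part in the untreated differences was not tested.

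**Figure D5:**
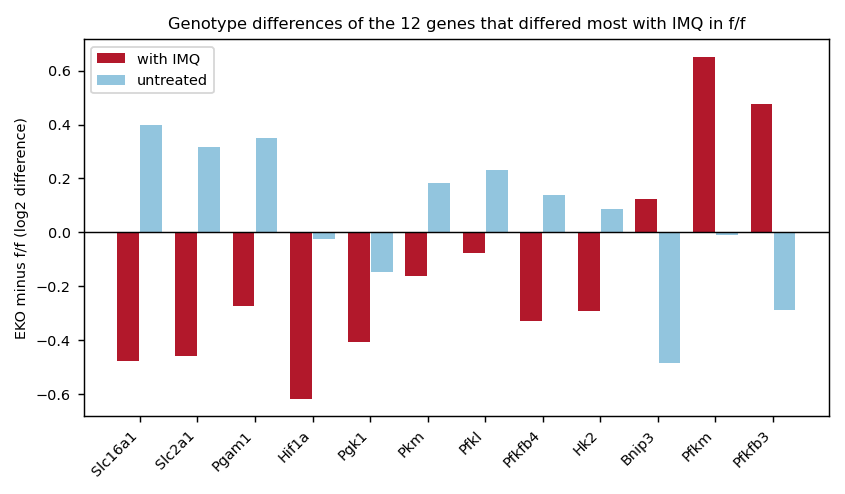
EKO minus f/f (log2 difference) with IMQ (red bars) and untreated (light blue bars) for the 12 genes 1.5-fold or more apart by IMQ in f/f, in order of that difference. With IMQ the 9 genes on the left lie below 0 and the 3 on the right above it; untreated, 7 of the 9 lie above 0.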

How the data were processed

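Total RNA from ears was measured on Mouse Gene 1.0 ST arrays (Affymetrix), per the series' design text. The authors deposited log2 values per probe set, summarised with RMA per the submitters' processing notes, which give no version. RMA makes array distributions alike, which would mask any change shared by most genes, and it narrows differences at low signal. Of 35556 probe sets, 21789 listed 1 gene symbol, 1621 several and 12146 none in the platform annotation. All 40 single-gene probe sets of the 32 genes had the RefSeq symbol of their Entrez identifier. Differences between arrays were computed in Python 3.11.15 with numpy 2.4.6 and pandas 2.3.3 over all genes, and other scalings in R 4.3.3 with limma 3.58.1. The step was checked on simulated data. No test was run, since each group has 1 array. Sequences are RefSeq's (GRCm38.p6). The members, gene lists and comparisons were chosen with earlier results of these data known. Members named with all 4 levels are those at least 2-fold different and up to 4 more per role by size of the f/f IMQ difference; from other lists, up to 5 at the floor by that size. Hk1 was detailed after its probe sets were seen to disagree.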

Additional observations from a re-analysis of the deposited data

Results flagged for a closer look

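For 8 genes the EKO minus f/f difference had one sign with IMQ and the other without, each by at least 0.1 (log2). With 1 array per group, this was not tested, and each value below is the difference with IMQ minus the difference untreated. Of genes lower in EKO with IMQ and higher untreated, Slc16a1 differed by -0.87, Slc2a1 by -0.77, Pgam1 by -0.62, Pfkfb4 by -0.47 and Pkm by -0.35. Of genes higher in EKO with IMQ and lower untreated, Pfkfb3 differed by 0.77, Bnip3 by 0.61 and Ddit4 by 0.53. The share of all genes meeting this rule was not computed, so the count of 8 is not read as a result. All but Ddit4 are among the members at least 1.5-fold different with IMQ in f/f. Their shared f/f arrays favour these signs, so nothing is read from the signs. Adm had opposite IMQ differences in the 2 genotypes, lower by 0.24 in EKO and higher by 0.22 in f/f, a gap of -0.45 that was likewise not tested, on levels below the floor of all arrays.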

How the results depend on the processing

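No paired analysis was possible because each group holds 1 array, and for the same reason no array could be left out. Counts past 2-fold and member medians were recomputed with array medians equalised, quantile normalization, cyclic loess, probe sets averaged per gene, no floor, other member statistics and, added after seeing the data, only probe sets that list a RefSeq mRNA. Medians moved by less than 0.1 in all. The count of members at least 2-fold lower with IMQ in f/f, 1 as deposited, became 0 with equalised medians and 3 with quantile normalization and with cyclic loess, as Pfkfb3, Pfkm and Bnip3 lay between -1.07 and -0.94 under these scalings. At 1.5-fold the counts were 9 higher and 3 lower for IMQ in f/f, 2 higher for IMQ in EKO, 1 higher and 1 lower for EKO against f/f with IMQ, and 3 higher and 4 lower for the difference of the IMQ differences. Scaling moved single values by -0.16 to 0.10 and changed signs only of differences of at most 0.05.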
